A study of Mus musculus with 400 samples.

Results

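The 90 cells described here were sorted from mouse small intestine as Lgr5-high and held the most transcripts of 3 major histocompatibility complex (MHC) class II genes, Cd74, H2-Aa and H2-Ab1. They were taken from 380 of 400 sequenced cells, those with at least 10000 counts. Counts were scaled to 1000000 counts per cell (CPM) and summed over the 3 genes. Within each of the 10 library sets the top 25%, 9 cells, formed the high group and the lowest 25%, also 9 cells, the low group. The remaining 200 cells lay between. These values chose the cells, so the levels of the 3 genes, called gate genes below, are given as a description and carry no test.

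All cells came from 1 sorted population, labelled Lgr5-high, of mice with the genotype Lgr5 GFP/+. Their Lgr5::EGFP-IRES-Cre-ERT2 allele places a green fluorescent protein and a tamoxifen-inducible Cre at the Lgr5 locus. Per the labels' protocols, crypts came from the duodenum and jejunum, dead cells were left out with DAPI, and single cells were captured on a Fluidigm C1 high-throughput chip before cDNA was made with a SMARTer kit. The protocols also name a 2 mg/kg tamoxifen dose for lineage tracing and a Cyp1a1::H2B-YFP strain, without saying that either applied to these cells, and no ages were stated. No label ties a cell to an animal. The population was therefore 1 sample, no p-value was computed, and every standard deviation (SD) is over the 10 library sets, which are a technical split of 40 cells each.

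MHC class II molecules display peptides taken from endocytosed proteins to CD4+ T cells. An alpha and a beta chain pair in the endoplasmic reticulum with the invariant chain, which is encoded by Cd74 and blocks the peptide groove until proteases such as cathepsin S degrade it, and the H2-DM heterodimer then helps the peptide to load. Transcription depends on the co-activator CIITA, which is recruited by RFX, CREB and NF-Y factors bound to the W, X and Y boxes of class II promoters, and interferon gamma induces CIITA in many cell types. Professional antigen-presenting cells carry most class II, but intestinal epithelium, stem cells included, is also known to express it.

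H2-Ab1, H2-Aa and H2-Eb1 lie in the MHC on chromosome 17, H2-Ab1 at 34257689 to 34269419 (plus), H2-Aa at 34282744 to 34287823 (minus) and H2-Eb1 at 34305867 to 34316674 (plus), all in GRCm38. The promoters of 3 class II genes with an entry in the RefSeq table (build GRCm38.p6) are shown because H2-Aa chose the cells while H2-Eb1 and H2-DMb1 did not, and because all 3 hold the same box. Each line gives the 80 bases from 110 to 31 bases upstream of the start site, 5′ to 3′ on the strand of the gene. Capitals mark TGATTGG, the core of the Y box that NF-Y binds, and upstream of it either TGACGTCA, the cAMP response element, or TGATGATG.
H2-Aa, chr17:34287854-34287933, minus strand: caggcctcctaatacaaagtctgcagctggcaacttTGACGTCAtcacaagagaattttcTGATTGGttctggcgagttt
H2-Eb1, chr17:34305757-34305836, plus strand: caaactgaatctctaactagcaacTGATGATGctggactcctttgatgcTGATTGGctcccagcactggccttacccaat
H2-DMb1, chr17:34153081-34153160, plus strand: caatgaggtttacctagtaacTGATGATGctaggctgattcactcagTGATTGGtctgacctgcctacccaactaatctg
The Y box core began 50 bases upstream of the start site in H2-Aa, 61 in H2-Eb1 and 63 in H2-DMb1. Between it and the upstream motif lay 16 bases in H2-Aa, 17 in H2-Eb1 and 18 in H2-DMb1. Over all 32851 RefSeq promoter windows of 300 bases, searched on both strands, 7.82% held TGATTGG, 1.79% TGACGTCA and 1.44% TGATGATG, and 0.240% held TGATTGG together with either of the other motifs. The motifs were chosen with these promoters in view, and a match is a description of letters. Neither of the 2 H2-DMa windows held any of the 3 motifs, and the table had no entry for H2-Ab1, Cd74 or Ciita.

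The 3 gate genes were high together in most of the cells chosen. Ranking by their summed level favours this, so it is a description of the groups. In the high group, summed gate CPM ran from 611 to 1453 with a median of 961, against 80.4 to 464 with a median of 283.7 in the low group and a median of 562 between. At the threshold there was no gap: in the median set the lowest high cell was at 819 CPM and the next cell outside at 781. Cd74 stood at 310.1 CPM over the summed counts of the high group, 187.8 in the middle cells and 87.8 in the low group. H2-Aa, the alpha chain of I-A, stood at 283.3, 147.1 and 70.9 CPM, and H2-Ab1, its beta chain, at 377.9, 235.1 and 129.5 CPM. In 67 of the 90 high cells (74.4%) all 3 genes were above the median of kept cells, and in 69 of the 90 low cells (76.7%) none was. Few cells lacked these transcripts altogether: 15 low cells had no Cd74 count, 13 no H2-Aa and 3 no H2-Ab1, against 0, 1 and 0 high cells. The low group was thus a lower range of the same transcripts, not a set of cells without them.

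H2-Eb1, the beta chain of I-E and not among the gate genes, was higher in the high group in every library set. Its level was lowest at 167.3 CPM, median 235.8 and highest 338.1 over the 10 high groups, against 58.3, 99.4 and 135.3 over the 10 low groups, and the ranges did not overlap. Over summed counts this was 243.3 against 103.3 CPM (682 against 300 counts), with 142.01 CPM in the middle cells. The log2 ratio, taken throughout with 5 CPM added to each level, was 1.20 (SD 0.51 over 10 sets), with an exact 95% interval of 1.04 to 1.44 for the ratio without that addition, which covers counting error only. A count was found in 96.7% of high cells (exact 95% interval 90.6 to 99.3%) and 86.7% of low cells (77.9 to 92.9%). Of 2620 genes compared with a mean level of at least 100 CPM, H2-Eb1 had the highest ratio. Over 31 alternative settings its ratio stayed between 0.82 and 1.68.

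**Figure D1:**
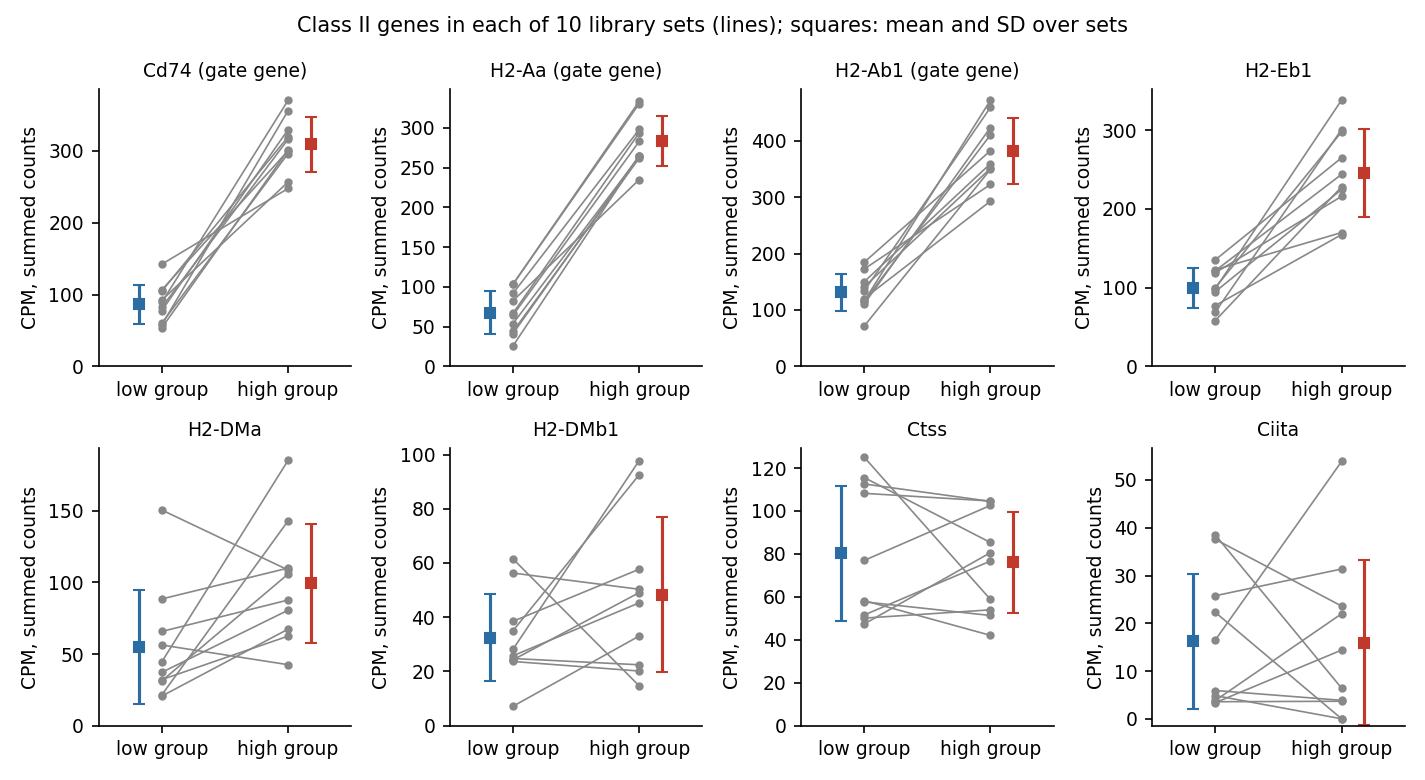
Level (CPM of summed counts, vertical axes from 0 or just below) of 8 class II genes in the low and high group of each of 10 library sets; grey lines join the groups of a set, and squares with bars give the mean and SD over sets. The gate genes and H2-Eb1 rise in all 10 sets without overlap, H2-DMa in 8, and the lines of H2-DMb1, Ctss and Ciita cross.

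The peptide-loading genes moved less evenly. H2-DMa, the alpha chain of H2-DM, stood at 99.2 against 52 CPM, a log2 ratio of 0.87 (SD 0.97), higher in 8 of 10 sets. Its set values ran from 42.6 over a median of 96.7 to 185.1 CPM in the high groups and from 20.6 over 40.9 to 150.5 CPM in the low ones, so the groups overlapped. Its exons overlap those of Brd2, and without a stated use of strand its counts are uncertain. The partner chain H2-DMb1 was at 48.2 against 33.4 CPM, a log2 ratio of 0.47 (SD 1.04), higher in 6 of 10 sets, and the middle cells were at 33.3 CPM. H2-DMb2 had 18 against 9 counts. H2-Eb2, H2-Oa and H2-Ob, the last 2 encoding the chains of H2-O, which restrains H2-DM, had at most 6 counts in either group.

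Proteases that prepare the invariant chain and the peptides differed among themselves. Ctsl, cathepsin L, had 41 against 18 counts (log2 ratio 0.81, higher in 8 sets and lower in 1). Ifi30, the lysosomal thiol reductase GILT, stood at 125.2 against 96.4 CPM (log2 ratio 0.36, SD 0.50, 7 of 10 sets). Ctss, cathepsin S, was at 75.6 against 81.3 CPM, with a log2 ratio of -0.10 (SD 0.51) and 4 sets of 10 higher. Lgmn, the asparagine endopeptidase, was at 18.9 against 28.2 CPM (log2 ratio -0.48, SD 1.27). A gene was counted as past the fold when its log2 ratio passed 1.5-fold and at least 8 of 10 sets went the same way, and the comparison took in 11639 genes. Of these, 2.07% were past the fold higher and 14% past the fold lower. Of the class II presentation genes outside the gate, a list that includes the enzymes above, 6 entered the comparison. Past the fold higher were 2 of these, H2-Eb1 and H2-DMa, and 0 were past the fold lower. H2-Eb1 stayed past the fold in all 31 alternatives. H2-DMa did not in 3 of 21 alternatives that kept all sets, among them 0.47 with 5 of 10 sets against all other cells and 0.63 with 6 of 10 sets without the 5% of cells with the most genes. It also fell short, with 7 of 9 sets, when any set but 3 or 4 was left out. Over the 8 such genes found in at least 5% of cells the median log2 ratio was 0.48 (SD 0.32, above 0 in 9 of 10 sets). Above 0 were 6 of the 8, against 52.6% of all genes compared, whose median was 0.03.

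The regulators of class II transcription did not follow the gate genes at this depth. Ciita stood at 15.3 CPM in the high group, 15.6 in the middle cells and 17.6 in the low group (43 against 51 counts), with 5 sets of 10 higher. Its exact 95% counting interval, -0.82 to 0.42 on the log2 scale, includes ratios on both sides of 0, so a difference was not detectable. Among the RFX subunits, Rfxap had a log2 ratio of 0.36 (SD 1.17), Rfx5 of 0.35 (SD 1.60) and Rfxank of -0.28 (SD 1.21). Nfya (0.00), Nfyb (0.17) and Nfyc (0.29), the NF-Y subunits, and Creb1 (-0.04) were near the median of all genes relative to their spread between sets. The median over the 8 regulators was 0.08 (SD 0.32). Above 0 were 4 of them, against 52.6% of all genes compared, and 0 were past the fold in either direction.

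Each class II gene was also read in groups that another single gene had chosen, where its own counts played no part in the choice. With groups chosen by Cd74 alone, H2-Aa had a log2 ratio of 0.97 (SD 0.37), H2-Ab1 of 0.79 (SD 0.37) and H2-Eb1 of 1.07 (SD 0.52). With H2-Aa as the only gate, Cd74 had 0.93 (SD 0.43), H2-Ab1 0.80 (SD 0.40) and H2-Eb1 1.01 (SD 0.36). With H2-Ab1 the values were 0.88 for Cd74, 0.98 for H2-Aa and 0.82 for H2-Eb1, and with H2-Eb1 they were 0.80 for Cd74, 0.87 for H2-Aa and 0.58 for H2-Ab1. All 12 were higher in 10 of 10 sets. These ratios were smaller than the 1.51 to 1.92 of the gate genes in the groups that the 3 chose together. In groups that a gene chose alone, its own ratio ran from 1.98 (H2-Ab1) to 2.87 (H2-Aa). The cells were only partly the same: 56 of the 90 high cells were also high by Cd74 alone, 63 by H2-Aa, 56 by H2-Ab1 and 52 by H2-Eb1. Ciita stayed without a common direction, at -0.48 with the Cd74 gate, -0.09 with H2-Aa, -0.03 with H2-Ab1 and 0.11 with H2-Eb1.

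**Figure D2:**
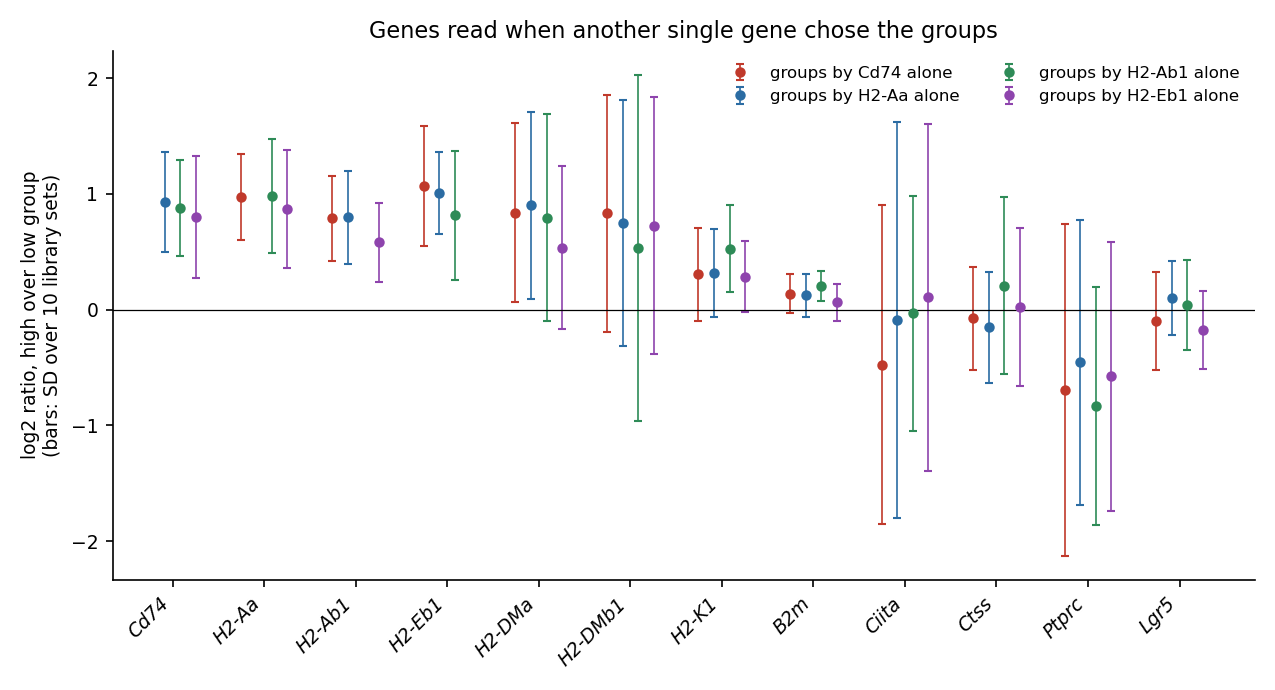
Log2 ratio (high over low group, vertical axis) of 12 genes when the groups were chosen by Cd74, H2-Aa, H2-Ab1 or H2-Eb1 alone (colours); points are ratios of summed counts, bars the SD over 10 library sets, and a gene is not drawn for its own gate. The 4 class II chain and invariant chain genes lie between 0.58 and 1.07 under every other gate, while Ciita lies between -0.48 and 0.11.

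Cell by cell the relation was weak. After each cell was thinned to 19169 counts, which left out 38 shallower cells of 380, the Spearman coefficient was 0.34 between Cd74 and H2-Aa, 0.26 between Cd74 and H2-Ab1 and 0.28 between H2-Aa and H2-Ab1. For H2-Eb1 it was 0.31 with Cd74, 0.34 with H2-Aa and 0.20 with H2-Ab1. Pearson's r on log2 values was lower, at 0.15, 0.11 and 0.16 for the gate pairs and 0.28, 0.18 and 0.04 for H2-Eb1. For comparison, Cd74 had -0.13 with Lgr5 and 0.05 with Mki67. A median of 10 Cd74, 9 H2-Aa, 12 H2-Ab1 and 7.5 H2-Eb1 counts lay behind each high cell, and 2, 2, 4 and 3 behind each low cell. Cells of a set share their library preparation, and these coefficients describe these cells only. Of all genes compared, those whose level followed the gate most closely by Pearson's r were Banf1 (0.38), which encodes a chromatin-binding protein of the nuclear envelope, Psme2b (0.33), Akr1a1 (0.32), Ndufb9 (0.31), Gm6977 (0.31), Mapk13 (0.31), Rpl30 (0.31) and Ndufa12 (0.30). H2-Eb1 followed in rank 15 (0.30) and H2-DMa further down (0.24), where the median over all genes was 0.00.

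Because the groups differed in more than class II, depth and gene number stand beside the comparisons that follow. Total counts were alike, with medians of 31128 in the high group, 32612.5 in the middle and 31977 in the low group, and the mitochondrial share was about the same at medians of 0.919, 0.871 and 0.872%. Genes with a count per cell fell from a median of 9118.5 in the low group over 8741 to 8196.5 in the high group. Of those 25% of kept cells in which the most genes had a count, 34 were in the low group (37.8% of it) and 12 in the high group (13.3%). Genes found in under 25% of cells took a median of 5.71% of the counts of a low cell and 4.46% of those of a high cell. The part of this difference in the gene comparison was not tested. Ratios also differed with the level of the genes. Binned after their values were seen, the 828 genes at 200 CPM or more had a median log2 ratio of 0.20, with 94% above 0, whereas the 5636 genes under 50 CPM had a median of -0.17, with 38.4% above 0. A ratio of about 0.2 in an abundant gene was therefore what most abundant genes showed.

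**Figure D3:**
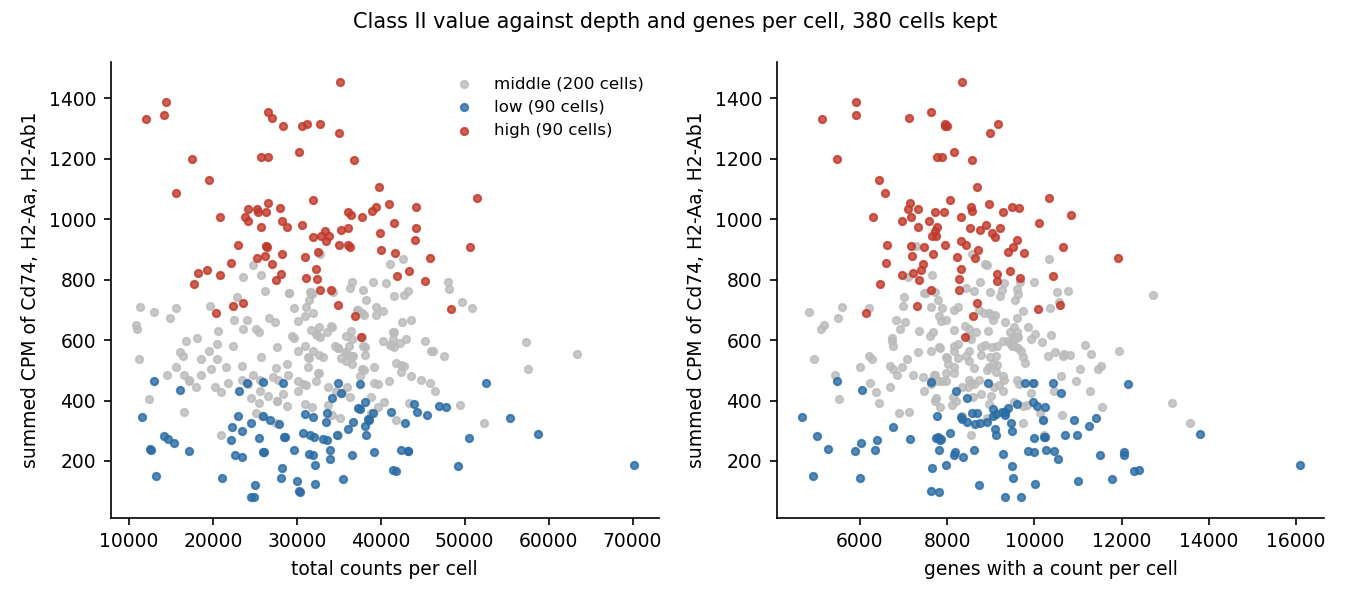
Summed CPM of the 3 gate genes (vertical axes) against total counts (left) and genes with a count (right) of each of the 380 cells kept, coloured by group. High and low cells span like totals, and the cells with the most genes are mainly low or middle cells; groups overlap at their edges because they were taken within each set.

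MHC class I genes, which present peptides made in the cytosol to CD8+ T cells, were higher in part. H2-D1, a classical class I heavy chain, ran from 174.1 over a median of 206.6 to 259.7 CPM in the 10 high groups and from 99.1 over 135.6 to 154.1 CPM in the low ones, without overlap. Its log2 ratio was 0.62 (SD 0.33, 10 of 10 sets), rank 7 of the 2620 genes with at least 100 CPM. H2-K1, the other classical heavy chain, was at 326.8 against 242.8 CPM (log2 ratio 0.42, SD 0.36, 9 of 10 sets). B2m, the light chain, was at 456 against 382.6 CPM in all 10 sets, but its log2 ratio of 0.25 (SD 0.17) was rank 799 and lay near the median of genes at its level. Scaled to the 1748 genes found in at least 90% of cells, H2-D1 had 0.36, H2-K1 0.32 and B2m 0.04. These 3 genes, and the proteasome genes below, were picked after their values were seen.

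H2-Q7, a non-classical heavy chain, was found in few cells and had the highest ratio of the class I genes. It stood at 44.6 against 12.7 CPM (log2 ratio 1.48, SD 1.04, 8 of 10 sets), and its set values overlapped, from 0 to 97.9 CPM and from 3.57 to 28.2 CPM. Reads of H2-Q6, which had 41 against 13 counts, may be shared with this near-identical copy, so neither can be taken as a separate gene. H2-T23, the mouse Qa-1 chain, was at 44.2 against 23.8 CPM (log2 ratio 0.78, 7 of 10 sets). H2-T10 went the other way, with 14 against 36 counts.

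The proteasome subunits that are swapped in for antigen processing were higher as well. Psmb8 was at 187.3 against 121.9 CPM (log2 ratio 0.60, SD 0.45, 9 of 10 sets) and Psmb9 at 113.8 against 73.7 CPM (0.59, SD 0.88, 8 of 10 sets), while Psmb10 was at 232.3 against 191.5 CPM (0.27, SD 0.34). The exons of Psmb9 overlap those of Tap1 and those of Psmb8 overlap another gene model. Of the proteasome activator, Psme2 had set values of 273.7 to 357.4 CPM in the high and 123.8 to 270.6 CPM in the low groups, with no overlap (log2 ratio 0.56, SD 0.38). Psme1 was at 317.2 against 243.1 CPM (0.38, SD 0.25, 10 of 10 sets). Psme2b, a retrocopy that shares sequence with Psme2, had 0.57, and reads may be split between them. The peptide transporter and its partners gave 0.39 for Tap1 (SD 1.29) and 0.44 for Tapbp (SD 0.52). Scaled to the genes found in at least 90% of cells, the ratios were lower, at 0.51 for Psmb8, 0.44 for Psmb9, 0.35 for Psme2 and 0.15 for Psme1, the last higher in 6 of 10 sets. Nlrc5, the class I counterpart of Ciita, was at 12.5 against 23.1 CPM (log2 ratio -0.68, SD 1.27), lower in 8 of 10 sets and past the fold lower, but not in 11 of 21 alternatives. Over the 26 class I genes the median was 0.27 (SD 0.16, above 0 in 10 of 10 sets, 21 of 26 members above 0). Of all genes compared 52.6% were above 0, of those at 100 to 200 CPM 73.8% and of those at 200 CPM or more 94%. Of the 19 class I genes compared, 4 were past the fold higher and 1 lower, against 2.07% and 14% of all genes. The 4 were H2-D1, H2-Q7, Psmb8 and Psmb9. These calls lay close to the threshold or varied between sets: of 21 alternatives that kept all sets, 9 kept the call of H2-D1, 18 that of H2-Q7, 12 that of Psmb8 and 7 that of Psmb9. Leaving out 1 set ended the call of H2-D1 for sets 6 (0.58) and 7 (0.55) and that of Psmb8 for sets 4, 6, 7 and 10 (0.54 to 0.58). H2-Q7 lost its call without any set but 1 or 4, and Psmb9 without any set but 6 or 8.

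Genes of the interferon gamma response showed no common shift. Irf1, a transcription factor of the response, was at 96.3 against 95.4 CPM. The GTPase gene Tgtp2 had 31 against 10 counts (0.93, 8 of 10 sets), whereas Gbp9 had 5 against 17 counts (-0.68) and Parp14 was at 12.8 against 20.3 CPM (-0.50). Over 27 genes of the list the median was 0.14 (SD 0.29) and 17 were above 0, against 52.6% of all genes compared. Of the 14 list members compared, 0 were past the fold in either direction. Scaled to the genes found in at least 90% of cells, the median was -0.02. The receptor chains Ifngr1 and Ifngr2 had log2 ratios of 0.37 (SD 0.69) and 0.29 (SD 0.69), and Jak2 had -0.27 (SD 1.02). Ifng itself had 0 counts in either group, which allows up to 3 counts in each. Genes of the type I and III interferon response had a median of -0.24 (SD 0.32), with 16 of 20 below 0, against 47.4% of all genes compared. Only 4 of the 20 had the level to enter that comparison. Compared genes under 50 CPM had a median of -0.17, with 38.4% above 0, so the part of low level in this median was not tested. Within the list Oasl2 was higher, at 43.2 against 25.1 CPM (0.68, 8 of 10 sets), and Isg15 had 0 counts in both groups.

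Among antimicrobial genes, Reg3g was higher in the cells high in class II. This secreted lectin against Gram-positive bacteria had set values of 148.2 over a median of 270.7 to 394.3 CPM in the high groups and 76.4 over 137.6 to 219.8 CPM in the low ones, which overlapped. Its log2 ratio was 0.86 (SD 0.62, 9 of 10 sets), rank 2 after H2-Eb1 among the 2620 genes at 100 CPM or more, and 0.56 to 1.32 over the alternatives. Its relative Reg3b was at 328.98 against 217.7 CPM (0.58, SD 0.50, 8 of 10 sets). Reg3g and Reg3b were also picked after their values were seen. Reg1 was at 43.5 against 14.8 CPM (1.29, SD 1.07, 9 of 10 sets), but 9 of 21 alternatives that kept all sets lost its call. Reg3a had 26 counts in 6.67% of high cells against 1 count. Nos2, the inducible nitric oxide synthase, had 29 against 8 counts (0.98). Pigr, which carries antibodies across the epithelium, was at 620 against 568 CPM (0.13), and Fut2 had 5 against 23 counts (-0.93). Over the 10 genes of the list the median was 0.34 (SD 0.32), above 0 in 6 of 10 sets and below in 2. Above 0 were 9 of them, against 52.6% of all genes compared. That share was 38.4% for genes under 50 CPM and 94% at 200 CPM or more. Of the 6 list members compared, 1 was past the fold higher and 0 lower, against 2.07% and 14% of all genes. Lyz1, the Paneth cell lysozyme, was at 226.2 against 222.5 CPM (0.02, SD 0.33).

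**Figure D4:**
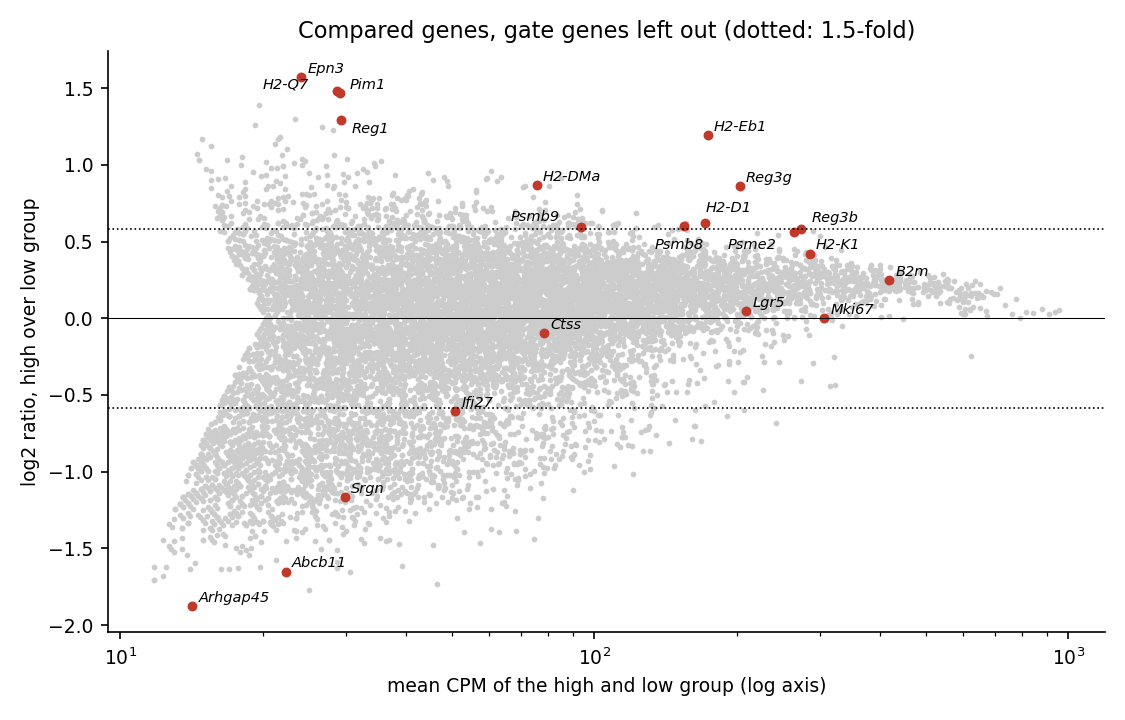
Log2 ratio (high over low group) against mean level (CPM, log axis) of the 11639 genes compared, with the gate genes left out and named genes in red; dotted lines mark 1.5-fold. H2-Eb1 and Reg3g stand above all other genes past 100 CPM, and the grey cloud lies slightly above 0 at high levels and widens downward at low levels.

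The cells kept the stem cell profile of the sort. Lgr5 ran from 163.8 to 273.7 CPM in the high groups and from 172.2 to 246.6 CPM in the low ones, with a log2 ratio of 0.05 (SD 0.32, 6 of 10 sets). Of other stem cell genes, Axin2, a Wnt target, was at 196.96 against 145.7 CPM (0.42, SD 0.38, 9 of 10 sets), Ascl2 at 169.8 against 130.5 CPM (0.37, SD 0.47, 9 of 10) and Olfm4 at 218.4 against 173.6 CPM (0.32, SD 0.32, 9 of 10). Ephb3 had the highest ratio of the list, 0.50 (SD 0.78), and Tcf4 the lowest, -0.45 (SD 0.68). Of 24 genes 19 were above 0, against 52.6% of all genes compared, and 0 of 23 compared were past the fold. Their median was 0.16 (SD 0.10). That lies below the 0.20 of genes at 200 CPM or more, and was 0.01 when scaled to the genes found in at least 90% of cells. Mex3a, the gene in the study's title, had 21 against 18 counts.

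Most cell cycle genes lay slightly above 0, as did most abundant genes. Mki67, the proliferation marker, was at 305.8 against 305.5 CPM (log2 ratio 0.00, SD 0.30). Top2a, the topoisomerase of dividing cells, was at 464 against 391.9 CPM (0.24, SD 0.25, 9 of 10 sets). The median over 42 S phase genes was 0.18 (SD 0.23), with 28 above 0, and over 53 G2 and M phase genes 0.15 (SD 0.30), with 45 above 0, against 52.6% of all genes compared. Scaled to the genes found in at least 90% of cells these medians were 0.07 and -0.02, and over 21 alternatives the S phase median ran from 0.06 to 0.26. Among the 2620 genes with at least 100 CPM, the DNA ligase gene Lig1 was rank 12 (0.61, 8 of 10 sets) and Rpa3, of the single-strand binding complex, rank 13 (0.60, 10 of 10 sets), both picked after their values were seen. Epcam, at 497 against 443 CPM, and Cdh1, at 319.4 against 312.03 CPM, were present in all cells of both groups, and the 16 epithelial genes had a median of 0.12 (SD 0.17). Markers of differentiated lineages gave medians of -0.01 for enterocytes, 0.02 for Paneth cells, -0.51 for tuft cells (SD 0.39) and -0.57 for goblet cells (SD 0.66). Each of the last pair was above 0 in 3 sets and below in 5, and over 21 alternatives they ran from -0.99 to -0.02 and from -1.39 to -0.18. The goblet transcription factor Spdef had 5 against 34 counts.

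Cells of the immune system carry class II, so their markers were read in both groups. They were lower, not higher, in the cells high in class II. The 12 general immune genes summed to 83.5 against 163.9 CPM, with set ranges of 40.4 to 106.5 and 68.9 to 313.5 CPM. The 17 macrophage and dendritic cell genes summed to 134.9 against 219.7 CPM (91.6 to 195.7 and 128.6 to 379.7 CPM), and the 12 B cell genes to 52.5 against 100.9 CPM (22.5 to 105.2 and 50.7 to 214.7 CPM). The 14 T and intraepithelial lymphocyte genes found summed to 38.9 against 100.6 CPM, and their set ranges, 14.7 to 52.3 and 60.7 to 201.8 CPM, did not overlap. Of the measured members, 0 of 7 general, 0 of 6 B cell, 2 of 11 macrophage and dendritic and 0 of 5 T cell genes were above 0. Of all compared genes under 50 CPM, 38.4% were above 0 and 23.5% past the fold lower. In the high group Cd79a, C1qa, Coro1a and Cd3d had 0 counts, Cd53 had 1 and Laptm5 had 3. Cd79b had 8 counts in 2.22% of high cells and 1 count in the low group.

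Ptprc, the pan-leukocyte gene CD45, had 21 against 57 counts and was found in 15.6% of high cells (exact 95% interval 8.77 to 24.7%) and 38.9% of low cells (28.8 to 49.7%). At equal depth these shares were 9.64% (4.25 to 18.1%) and 22.5% (13.9 to 33.2%). The sets did not all go the same way, as Ptprc was higher in the high group in 3 of 10 (log2 ratio -0.98, SD 1.45). Srgn, a proteoglycan core of blood cell granules, was lower in all 10 sets, at 16.4 against 43.05 CPM (log2 ratio -1.17, SD 0.71), with no overlap of the sets. No high cell had counts of more than 5 of the 12 general immune genes. Without the cells that had a Ptprc count, H2-Eb1 had 1.25 and the median of the other class II presentation genes was 0.59. Markers of tissues that the sort should lack moved the same way. Stromal genes summed to 16.1 against 58.2 CPM and endothelial genes to 66.01 against 137.8 CPM, and among the latter Pecam1 was lower in 10 of 10 sets (-1.02, SD 0.70). The part that the larger number of genes per low cell had in these lower values was not tested. Without the 25% of cells with the most genes, the general immune genes had a median of -0.46 and the other class II presentation genes 0.45.

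**Figure D5:**
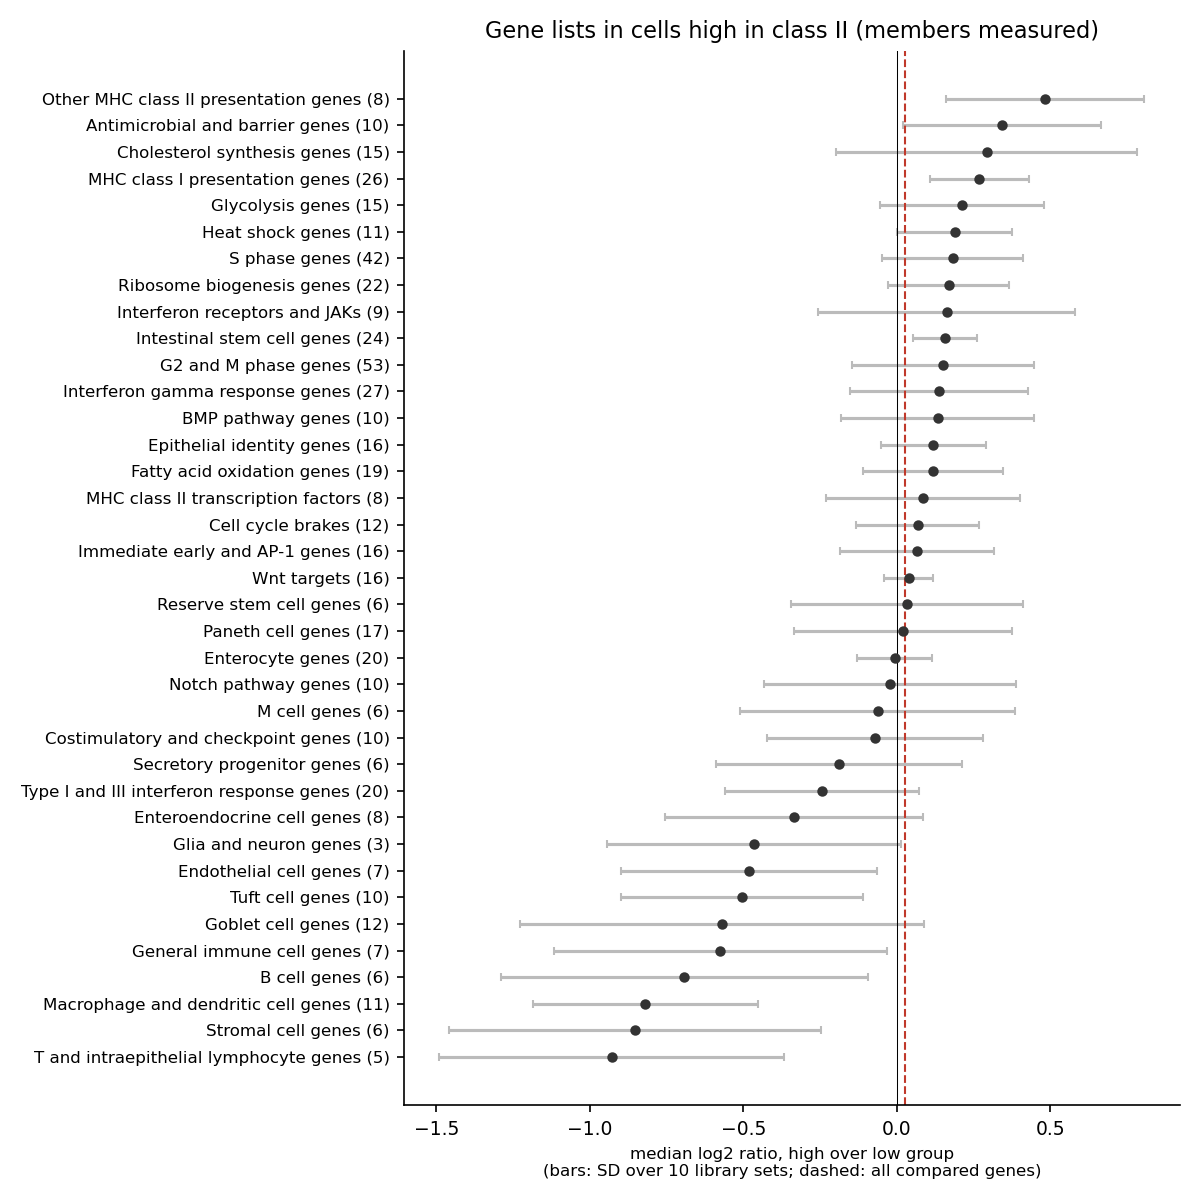
Median log2 ratio (high over low group, horizontal axis) of each gene list with the number of members measured, leaving out the gate genes and an interferon gamma and IL-22 ligand list with 1 measured member; bars are the SD of that median over 10 library sets, and the dashed line is the median of all genes compared. Of the lists drawn, class II presentation genes outside the gate, proteases included, lie highest at 0.48. Immune, stromal and T cell genes lie lowest, down to -0.93.

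Over the whole table, 1626 of 11639 genes were past the fold lower (14%) and 2.07% past the fold higher. Of the 12 highest named genes, H2-Eb1 was the only one above 100 CPM. Epn3, an endocytic adaptor, had the highest ratio, at 38.5 against 9.64 CPM (log2 ratio 1.57, SD 0.64, 10 of 10 sets). Pim1, a serine/threonine kinase, was at 44.96 against 13.1 CPM (1.47, SD 1.11, 10 of 10 sets), and its exons overlap another gene model. The others were H2-Q7, Acta1 (1.39), Pcdh8 (1.30), Reg1, Haghl (1.26), the nucleotide synthesis gene Prps1 (1.23), Crat (1.11), the cold-inducible gene Rbm3 (1.06) and Snx19 (1.06, 10 of 10 sets). They did not all hold their size: thinned to equal depth, Epn3 had 0.54 and Acta1 0.59, and in groups chosen by H2-Ab1 alone Epn3 had 0.38.

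The genes past the fold lower were mostly of low level. They had a median mean level of 28.4 CPM and a count in a median of 43.8% of cells, against 51.6 CPM and 60.5% over all genes compared. The lowest named gene, Arhgap45, had 9 against 73 counts (log2 ratio -1.88, SD 1.08, lower in 10 of 10 sets). Stk32b followed with 24 against 120 counts (-1.77) and then BB557941, Fbxw22, Abcb11, the bile salt export pump, at 8.21 against 36.5 CPM (-1.65), Pantr1, Calb1, Dse, Stab2 and Acsbg1 (-1.54). Without the 25% of cells with the most genes, 405 genes were past the fold lower (3.68% of those compared). This alternative was added after the data had been seen.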

How the data were processed

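The authors deposited 1 table of whole-number counts for 33496 genes in 400 cells, used as not normalized. Their processing notes name GRCm38.p4 as the build. Which aligner and counting tool were used, and any use of strand or molecular identifiers, was not stated. The highest count was 36, and 0 spike-in rows were found. Symbols and positions came from GENCODE M21, and 277 identifiers had none. The 40 barcode numbers recur in each of the 10 sets, and 0 pairs of cells were identical. Doublets were not removed.

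The members and lists were chosen with earlier results of these data known. Cells under 10000 counts (20) were left out. Counts were summed over the cells of a group and scaled to CPM in Python 3.11.15 (numpy 2.4.6, scipy 1.17.1). Genes were compared with a count in at least 10% of cells and 20 CPM in either group. List medians used members found in at least 5% of cells. The calculation of ratios was checked on simulated counts, drawn from a common mean profile with known fold changes put into the high group. No difference in genes per cell was built into them, so the check does not bear on that difference. Genes were named by rule: gate genes, class II and regulator genes, the 12 highest and 12 lowest past the fold, the extremes of each list, and the 8 that followed the gate most closely. Of the named genes, 64 overlap an exon of another gene. Some named genes are not reported here. Median totals per library set ran from 28365 to 37139 counts. Intervals are exact (Clopper-Pearson or conditional binomial). Those on ratios cover counting error only. Those on shares of cells treat the cells of a group as independent draws, although all came from 1 sample. They are a description and no test between the groups.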

Additional observations from a re-analysis of the deposited data

Results flagged for a closer look

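The 20 cells left out for low depth also held class II transcripts. Their 96 counts of Cd74, H2-Aa and H2-Ab1 in 149890 counts came to 640 CPM, above the 20.0 CPM that a count of 0 would allow, and 19 of the 20 cells had at least 1. H2-Eb1 was at 286.9 CPM in them. The 380 cells kept had 595 CPM of the 3 genes. The values stand out because these cells enter no comparison.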

How the results depend on the processing

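The result that moved most was the share of compared genes past the fold, given here in percent. The share higher (2.07%) became 0.601% with a pseudocount of 20 CPM, 1.28% with groups of 33.3% of cells, 4.46% with groups of 10%, 0.368% against all other cells of a set and 1.20% with H2-Aa alone as the gate. It was 3.59% with no condition on sets, 1.93% with a filter at 25% of cells and 50 CPM and 0.849% with no filter. The share lower (14%) became 9.03% under the same pseudocount, 6.22% against all other cells, 4.47% with the H2-Aa gate, 7.99% with the stricter filter and 8.15% with no filter (2727 genes). It was 8.93% (1009 genes) without the 5% of cells with the most genes and 7.07% (799 genes) without cells with a Ptprc count. Leaving out 1 library set gave 1.13 to 1.73% higher and 8.62 to 11.7% lower, where by construction 8 of 9 sets had to share the direction. The lowest of these came without set 6, and next lowest without set 1 (1.16 and 8.84%). The number of genes higher also fell by over 1.5 times without set 4 (1.30%) and without set 10 (1.33%).

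Of the alternatives added after the data had been seen, scaling to genes found in at least 90% of cells gave 0.910% higher and 7.54% lower, and moved the median of all genes from 0.03 to -0.08. Groups taken within strata of like gene number gave 7.30% lower, and leaving out the 25% of cells with the most genes gave 3.68% lower. The share of genes past the fold that were higher, 12.9%, became 32.9% there, 29.4% with groups of 10% and 22.6% without cells with a Ptprc count. The median of other class II presentation genes was 1.34 with groups of 10%. That of stem cell genes was 0.30 with groups of 10% and 0.0096 with the scaling to widely found genes. A reversal of direction was counted only for genes whose main ratio passed 1.5-fold with at least 8 of 10 sets alike. It occurred for Pfkm (0.11 thinned, 0.036 with groups over all kept cells, 0.0026 with Cd74 alone as the gate). It also occurred for H2-T10 (0.032 with groups over all kept cells) and Cd86 (0.11 without the 25% of cells with the most genes). Among genes not past the fold, Ciita kept its sign in 24 of 31 alternatives, Lgr5 in 25 and Ctss in 29. The cause was not tested. Of 6107 values of named genes over 31 alternatives, 6030 moved by less than the SD over sets and were not counted as reversed. That SD was wide, with a median of 0.80 over all genes compared. High and low cells were chosen within each library set, except in the alternative with groups over all kept cells. The ratios summed counts over the sets, and their direction was also counted set by set. Beyond that comparison by library set no pairing was possible, because the labels give only 1 group and tie no cell to an animal. With a median of 32112 counts per cell, genes with few counts per group, such as Ciita, allow only wide intervals.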
